A study of Mus musculus with 6 samples.

Results

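The nuclear oxidative phosphorylation genes were the 88 of 21887 protein-coding genes of the RefSeq GRCm38 annotation whose symbols begin with Ndufa, Ndufb, Ndufc, Ndufs, Ndufv, Uqcr, Cox4 to Cox8 or Atp5, with Sdha, Sdhb, Sdhc and Sdhd and without the Ndufaf assembly factors. They comprised 41 genes of complex I, 4 of complex II, 8 of complex III, 18 of complex IV and 17 of complex V. Complexes were assigned by the gene symbol alone, so Ndufa4 and Ndufa4l2 were counted in complex I by name. Their chromatin was examined in TrkC neurons from the dorsal root ganglia of mouse embryos at E11.5, the sensory neurons of the proprioceptive lineage, which were fixed with paraformaldehyde and sorted by the GFP of a Runx3 bacterial artificial chromosome transgene (Runx3-BAC-GFP-CB6). Every group carried this transgene, so the cells are those in which it drives GFP, and no other genotype or treatment was compared. The 6 samples formed 3 groups of 2, namely H3K27ac chromatin immunoprecipitation, ATAC-seq and input DNA, with 50000 cells per library. The deposited results are 1 consensus list of peak positions per assay, 43739 for ATAC and 19928 for H3K27ac, so values per replicate and depth are unknown and every count below describes these lists without a test between replicates.

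Oxidative phosphorylation is carried out in the inner mitochondrial membrane. Complexes I and II pass electrons from NADH and succinate to ubiquinone, complex III passes them on to cytochrome c, complex IV reduces oxygen, and complex V uses the proton gradient to make ATP. Most subunits are encoded in the nucleus, are made in nearly every cell type and are known targets of the transcription factors NRF1, GABP (an ETS factor) and YY1, whereas several complex IV subunits have alternative isoforms made mainly in striated muscle or in testis. ATAC-seq marks DNA that a transposase can reach, and H3K27ac marks active promoters and enhancers. A gene is called open or acetylated here when at least 1 bp of an ATAC or H3K27ac peak lies within 1 kb of either annotated end of the gene.

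Subunit genes carried both marks more often than protein-coding genes at large. An ATAC peak lay at an end of 79 of 88 members, or 89.8% (95% Wilson interval 81.7 to 94.5), against 60.4% of all protein-coding genes. H3K27ac lay at an end of 76 members, or 86.4% (77.7 to 92.0), against 49.3% of all genes. Both were present at 74 members, or 84.1%, against 47.8% of all genes. Of the open genes, 93.7% of the members and 79.1% of all genes were also acetylated. The intervals cover counting error only, over genes that are not independent of one another.

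**Figure D1:**
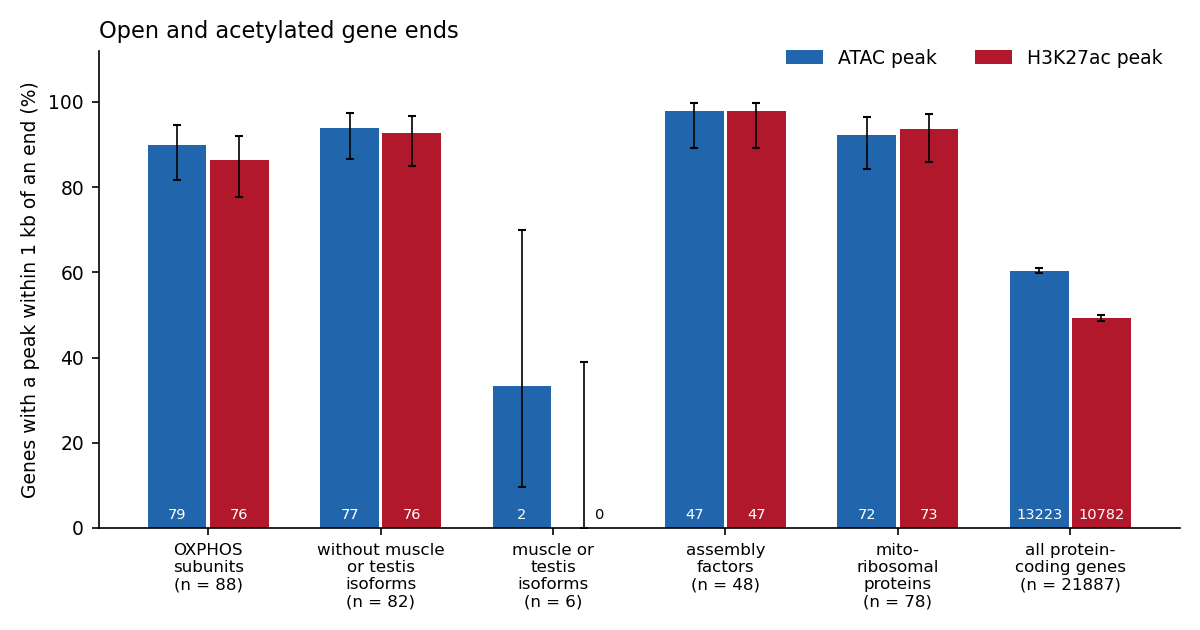
Share of genes (%) with an ATAC peak (blue) or an H3K27ac peak (red) within 1 kb of an annotated end, with 95% Wilson intervals and the number of genes in each bar. The subunit genes stand at 89.8% and 86.4%, the muscle or testis isoforms at 33.3% and 0%, and all protein-coding genes at 60.4% and 49.3%.

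The cells' identity was read from markers in the same lists. Of 8 TrkC and pan-sensory markers, 7 were open and 6 acetylated at an end, among them Isl1, Pou4f1 and Tubb3. Ntrk3, which encodes TrkC, lacked peaks at its ends but held 7 ATAC and 4 H3K27ac peaks within the gene body, and Runx3 was open but not acetylated at its annotated ends, with 13 ATAC and 3 H3K27ac peaks within the gene body and H3K27ac at a RefSeq start. By the same rule 60.4% of all protein-coding genes were open and 49.3% acetylated. Of 12 skeletal muscle markers 6 were open and 1 was acetylated (Mylpf, by a peak outside the gene and not at its start). At RefSeq starts, known for 9 of the muscle markers, 1 was open (Actc1) and 0 acetylated. Of 9 germ cell and testis markers 1 was open and acetylated (Dazl). Of 5 glia and neural crest markers 3 were open and 4 acetylated, with H3K27ac peaks of 2248 bp at Sox10 and 2556 bp at Foxd3. Blood markers gave 0 open and 1 acetylated of 5 (Klf1), and endothelial markers 1 open (Kdr) and 0 acetylated of 3. The part of such other cells in the peaks at subunit genes was not tested.

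The contrast between tissue isoforms and common isoforms of complex IV can be read beside their promoter sequences, which are given for 3 of the 4 pairs in which both genes have a RefSeq start. Cox6b2 is the testis isoform of subunit 6B, and Cox7a1 and Cox8b are the striated muscle isoforms of subunits 7A and 8. Each sequence runs 5′ to 3′ on the strand of the gene, from 250 bases before the annotated start through the start, which is base 251 and is counted as position 0. Sequences are RefSeq's on GRCm38.p6. Capitals mark every match, on either strand, to the cores of NRF1 (CGCANGCG), ETS (CCGGAAG), YY1 (AAGATGGC), ERR (AAGGTCA), the GC box (GGGCGG), the CCAAT box (CCAAT) and the TATA box (TATAAA), and matches of different cores may overlap. The windows are, in this order, chr7:4753045-4753344, chr7:30626065-30626364, chr7:30183921-30184220, chr9:79759804-79760103, chr7:140900397-140900696 and chr19:7217567-7217866, with Cox7a1 on the plus strand and the others on the minus strand.
Cox6b2: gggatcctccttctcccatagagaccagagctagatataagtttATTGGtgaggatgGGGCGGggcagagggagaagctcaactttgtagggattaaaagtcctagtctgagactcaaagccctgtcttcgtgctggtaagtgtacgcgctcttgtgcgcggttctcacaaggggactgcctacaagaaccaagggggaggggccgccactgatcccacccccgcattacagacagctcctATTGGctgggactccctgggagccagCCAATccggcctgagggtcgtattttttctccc
Cox6b1: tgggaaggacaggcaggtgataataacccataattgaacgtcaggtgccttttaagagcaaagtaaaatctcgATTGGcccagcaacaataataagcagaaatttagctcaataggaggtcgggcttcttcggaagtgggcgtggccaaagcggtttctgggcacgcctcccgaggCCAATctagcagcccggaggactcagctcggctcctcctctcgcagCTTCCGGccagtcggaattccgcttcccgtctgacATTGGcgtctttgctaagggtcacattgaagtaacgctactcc
Cox7a1: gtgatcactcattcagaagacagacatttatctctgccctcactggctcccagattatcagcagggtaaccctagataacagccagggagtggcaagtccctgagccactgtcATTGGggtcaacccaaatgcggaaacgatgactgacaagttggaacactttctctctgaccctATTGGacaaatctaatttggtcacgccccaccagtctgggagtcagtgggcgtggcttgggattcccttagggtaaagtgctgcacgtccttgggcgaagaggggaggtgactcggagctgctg
Cox7a2: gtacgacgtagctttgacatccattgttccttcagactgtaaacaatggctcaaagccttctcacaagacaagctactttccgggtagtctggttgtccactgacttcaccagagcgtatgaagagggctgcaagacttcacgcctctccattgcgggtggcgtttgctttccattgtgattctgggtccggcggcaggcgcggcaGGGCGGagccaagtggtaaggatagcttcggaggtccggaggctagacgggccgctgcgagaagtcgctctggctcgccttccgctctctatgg
Cox8b: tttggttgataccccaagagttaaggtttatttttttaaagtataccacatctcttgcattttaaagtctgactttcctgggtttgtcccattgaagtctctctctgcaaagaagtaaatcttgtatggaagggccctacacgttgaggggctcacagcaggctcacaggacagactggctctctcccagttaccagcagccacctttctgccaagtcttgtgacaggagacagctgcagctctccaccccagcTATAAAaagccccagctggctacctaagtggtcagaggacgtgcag
Cox8a: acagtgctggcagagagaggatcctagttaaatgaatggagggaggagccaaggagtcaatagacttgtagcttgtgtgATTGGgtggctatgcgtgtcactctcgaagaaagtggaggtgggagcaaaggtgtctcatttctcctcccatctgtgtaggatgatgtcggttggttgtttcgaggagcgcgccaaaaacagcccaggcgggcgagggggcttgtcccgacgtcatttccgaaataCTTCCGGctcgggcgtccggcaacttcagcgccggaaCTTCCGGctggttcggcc

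The tissue isoform promoters held no NRF1, ETS, YY1 or ERR core. Cox6b2 had 3 CCAAT boxes and 1 GC box, Cox7a1 had 2 CCAAT boxes, and Cox8b had 1 TATA box, whose first base lies 4 bases after the annotated start. Among the common partners, Cox6b1 had an ETS core 28 bases before its start and Cox8a had a pair of ETS cores, 5 bases before and 32 bases after its start, while Cox7a2 had a GC box only. The promoters differed more evenly in CpG content. The observed over expected CpG ratio was 0.432 in Cox6b2 against 0.807 in Cox6b1, 0.333 in Cox7a1 against 0.833 in Cox7a2, and 0.115 in Cox8b against 0.842 in Cox8a. In the further pair of subunit 7B, however, the ratio was 0.564 in the testis isoform Cox7b2 and 0.368 in the common Cox7b. Neither promoter of that pair held an NRF1, ETS, YY1 or ERR core. Of the remaining common partners, Cox7a2l also held none of these cores, and Cox6a1 held 2 NRF1 cores and 1 ETS core.

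None of the 6 muscle or testis isoforms was acetylated, and 2 of 6 were open. The common partners, Cox6a1, Cox6b1, Cox7a2, Cox7b and Cox8a with the Cox7a2 relative Cox7a2l, gave 5 of 6 acetylated and 4 of 6 open at an annotated end. At RefSeq starts, which are known for 4 of the tissue isoforms and all 6 common ones, the counts were 0 of 4 against 6 of 6 acetylated and 2 of 4 against 5 of 6 open. Without Cox7a2l, which is not a plain isoform of subunit 7A and was set aside after the values were seen, the common partners gave 4 of 5 acetylated and 3 of 5 open at an end, and 5 of 5 and 4 of 5 at a start. With so few genes the Wilson intervals are wide, reaching 39.0% for the acetylated tissue isoforms. The 82 other members gave 76 acetylated and 77 open.

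The open tissue isoforms were Cox6b2 of testis and Cox7a1 of muscle. Both have a near neighbour, with an end of Fam71e2 132 bp from an end of Cox6b2 and an end of Capns1 904 bp from an end of Cox7a1. Another gene's end lay within 2 kb of an end of 4 of 6 tissue isoforms and 0 of 6 common partners. The part of these neighbours in the peaks was not tested. Cox6b2 had an ATAC peak of 233 bp from 131 bases before to 101 bases after its start (chr7:4752993-4753225), and Cox7a1 had one of 266 bp from 176 bases before to 89 bases after its start (chr7:30183995-30184260). Neither peak overlapped H3K27ac. The common partner Cox6b1 had an ATAC peak of 359 bp and an H3K27ac peak of 752 bp over its start, and Cox7a2 had peaks of 383 bp and 1562 bp over its start. Both kinds of isoform were thus open at the start in these pairs, and they differed in the acetylation around it.

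The other tissue isoforms had no peak at an end. The muscle isoform Cox8b had only an ATAC peak of 141 bp within 5 kb, 2915 bp upstream of its start, whereas Cox8a had 478 bp of ATAC and 1544 bp of H3K27ac over its start. The testis isoform Cox7b2, a gene of 105383 bp, had an ATAC peak of 115 bp deep inside the gene, 50096 bp from its nearest end. Its common partner Cox7b had an H3K27ac peak of 495 bp that begins 8 bases before the start (chrX:106015692-106016186) and no ATAC peak there. The muscle isoform Cox6a2 and the testis isoform Cox8c had no peak within 5 kb, while Cox6a1 had 284 bp of ATAC and 1114 bp of H3K27ac at its start. Cox7a2l, a relative of Cox7a2 that takes part in joining complexes III and IV, carried 1315 bp of H3K27ac with ATAC peaks of 145 and 211 bp.

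**Figure D2:**
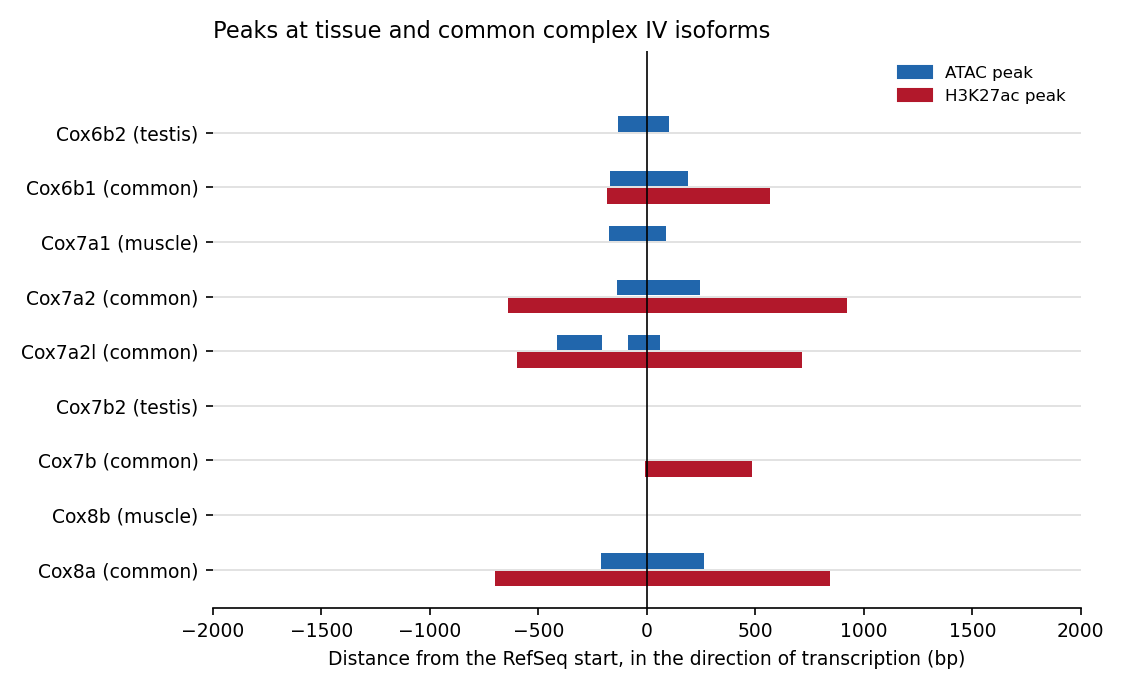
Extent of ATAC peaks (blue) and H3K27ac peaks (red) within 2 kb of the RefSeq start for the 4 tissue isoforms with a known start, each above its common partners, drawn to scale in bp. ATAC covers the starts of Cox6b2 and Cox7a1 without H3K27ac, and Cox7b has H3K27ac without ATAC.

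Other restricted paralogs differed in the same marks. Cox4i2, the isoform of subunit 4 known from lung and induced by low oxygen, was open over 305 bp (chr2:152754072-152754376) and not acetylated, whereas the common Cox4i1 had ATAC over 652 bp and H3K27ac over 1900 bp. Ndufa4l2, a paralog of Ndufa4 known to be induced by low oxygen, had 275 bp of ATAC and 562 bp of H3K27ac at an end that lies 31 bp from an end of Shmt2, so those peaks cannot be assigned to either gene alone. It had a further ATAC peak of 711 bp inside the gene under H3K27ac of 1527 bp. Ndufa4 had 308 bp and 1146 bp at its ends. Ndufb4b and Ndufb4c, paralogs of Ndufb4 by name with gene spans of 471 and 485 bp, had ATAC peaks of 135 and 158 bp and no H3K27ac, against 503 bp of ATAC and 1579 bp of H3K27ac at Ndufb4. How reads that match several paralogs were treated is not given in the sources used here.

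Complexes I, II, III and V were almost completely marked, and the exceptions gathered in complex IV. In complex I, the entry point for NADH, 40 of 41 genes were open and 38 acetylated. The core subunits that carry the flavin and iron-sulfur clusters had H3K27ac peaks of 2312 bp at Ndufs1, 910 bp at Ndufs7, 1167 bp at Ndufs8, 1186 bp at Ndufv1 and 1439 bp at Ndufv2. Ndufs3, a core subunit without such a group, had 1151 bp. The subunit gene Ndufs4, whose loss causes a Leigh-like disease in mice, had 892 bp, and Ndufab1, the mitochondrial acyl carrier protein, had 1151 bp.

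All 4 genes of complex II, which also belongs to the tricarboxylic acid cycle, were open and acetylated. Their H3K27ac peaks were alike in width, with 1377 bp at the flavoprotein gene Sdha, 1396 bp at the iron-sulfur gene Sdhb, and 1470 and 1575 bp at the membrane anchor genes Sdhc and Sdhd. All 8 genes of complex III were open and acetylated, from 725 bp of H3K27ac at the core gene Uqcrc1 to 2903 bp at the hinge gene Uqcrh, with 1295 bp at Uqcrfs1, the Rieske iron-sulfur protein.

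In complex IV, 11 of 18 genes were open, 9 acetylated, 8 both and 6 neither. Cox5b, Cox6c and Cox7c, for which no tissue isoform was listed, had H3K27ac over 886, 845 and 791 bp. In complex V, 16 of 17 genes were open and all 17 acetylated. Its catalytic genes Atp5a1 and Atp5b had H3K27ac over 1434 and 2242 bp, and Atp5o, which links the catalytic head to the stalk, over 897 bp. The Atp5g1, Atp5g2 and Atp5g3 genes encode the same mature c subunit of the rotor and all carried both marks, with H3K27ac of 1567, 3385 and 1437 bp.

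Several exceptions outside the tissue isoforms lay at gene ends and not at start sites. Cox5a and Cox7a2 had neither mark at an annotated end, and Atp5d had H3K27ac only, in a peak of 1520 bp without ATAC. The RefSeq starts of Cox5a, Cox7a2 and Atp5d lie inside the annotated spans, and each start was covered by both marks. At Cox5a, ATAC of 510 bp (chr9:57521073-57521582) and H3K27ac of 1769 bp (chr9:57520720-57522488) covered the start at position 57521232. At Cox7a2 the peaks are those given above. At Atp5d, the delta subunit gene, ATAC of 208 bp and H3K27ac of 1844 bp covered the starts at 80142275 and 80142315.

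Over the 71 members with a RefSeq start, 68 (95.8%) had ATAC within 1 kb of a start, against 62.3% of 17492 genes. H3K27ac lay within 1 kb of a start at 66 members (93.0%), against 51.6% of all genes with a start. Leaving out the muscle or testis isoforms, Cox4i2, Ndufa4l2, Ndufb4b and Ndufb4c, both marks lay at 65 of 66 starts, the exception being Cox7b. The start itself was inside an ATAC peak at 66 members (93.0%) and 54.5% of all genes.

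Peaks at subunit genes had a narrow open core and acetylation that in the median reached somewhat farther into the gene than upstream. The RefSeq start listed at the top for each gene was used. In the 65 members with ATAC over it, the peak reached a median of 170 bp upstream and 171 bp downstream. H3K27ac peaks over the start reached 600 bp upstream and 754 bp downstream in the median of 61 members, and 39 of them were longer downstream. At 500 bp after the start 84.5% of members lay in an H3K27ac peak, and at 500 bp before it 49.3%, while all genes gave 40.5% after and 24.0% before. At 1000 bp the shares were 14.1% of members and 15.6% of all genes after the start, and 15.5% of members and 7.57% of all genes before it.

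**Figure D3:**
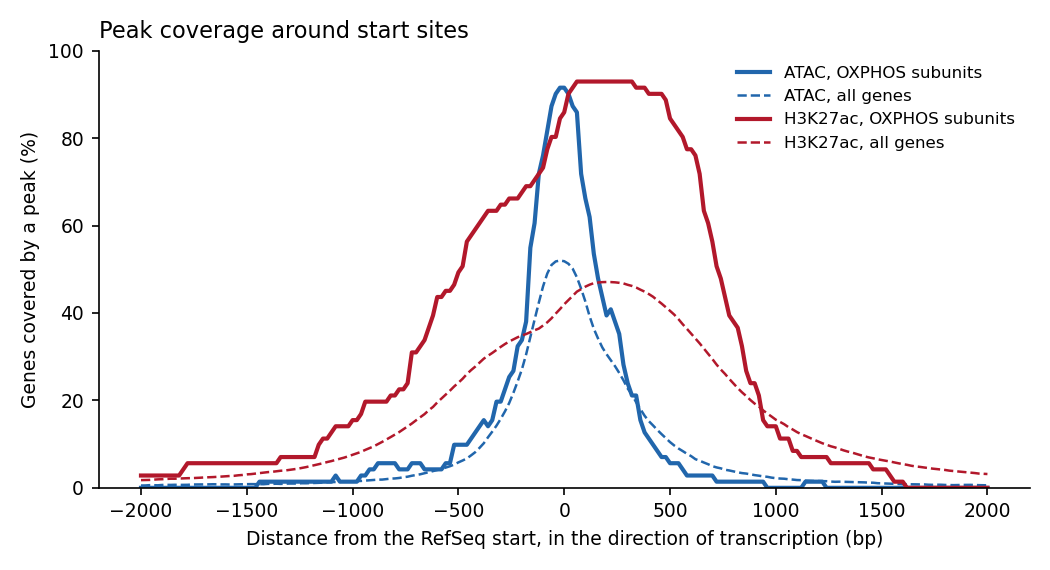
Share of genes (%) covered by an ATAC peak (blue) or an H3K27ac peak (red) at each distance from the RefSeq start in bp, for 71 subunit genes (solid) and 17492 genes (dashed). ATAC is centred on the start, with 91.5% of subunit genes and 51.8% of all genes covered there. H3K27ac covers 84.5% of subunit genes at 500 bp after the start and 49.3% at 500 bp before it. For all genes these shares are 40.5% and 24.0%. At 1000 bp the subunit shares are 14.1% after and 15.5% before.

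The peaks were of ordinary width. The widest ATAC peak at an end had a median of 381 bp in members and 431 bp in all open genes, and the widest H3K27ac peak had medians of 1345 bp (quartiles 932 and 1595) and 1317 bp (863 and 1861). The widest H3K27ac peaks among the members were at Atp5g2 (3385 bp), Uqcrh (2903 bp), Ndufa13 (2775 bp), Ndufa7 (2637 bp) and Atp5pb (2609 bp), and of these only Atp5g2 has no other gene's end within 2 kb. None of the 78 H3K27ac peaks at member ends exceeded 4 kb, against 2.31% of 9523 at all gene ends. By complex, the median H3K27ac width was 1177 bp in I, 1433 bp in II, 1194 bp in III, 886 bp in IV and 1520 bp in V. Of the 98 ATAC peaks at member ends, 90.8% overlapped H3K27ac, against 72.8% of 15112 ATAC peaks at all gene ends.

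**Figure D4:**
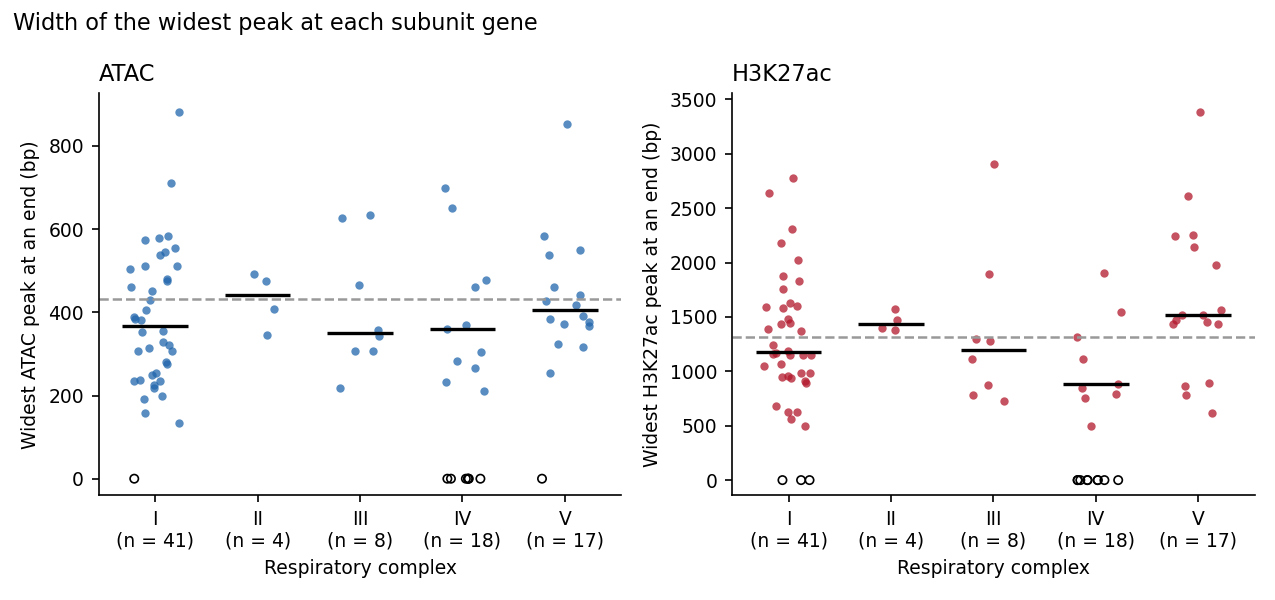
Width in bp of the widest ATAC peak (left) and the widest H3K27ac peak (right) at the ends of each subunit gene, by complex, with open circles at 0 for genes without a peak. Black bars are medians over genes with a peak and the dashed line is the median of all such protein-coding genes (431 bp and 1317 bp), and most genes without a peak belong to complex IV.

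Subunit genes often share their ends with a neighbour. An end of another protein-coding gene lay within 2 kb of an end of 54 members (61.4%), against 32.2% of all genes, so peaks counted above can belong to both genes. How many of the peaks lie within 1 kb of an end of both genes was not counted. A start of another gene pointing away lay within 1 kb of the start of 19 of 71 members (26.8%), against 8.48% of all genes with a start. These neighbours included the cytosolic ribosomal gene Rps28 (10 bp from Ndufa7), the mitochondrial ribosomal gene Mrpl47 (308 bp from Ndufb5) and the mitochondrial import gene Timm8b (52 bp from Sdhd). Complex IV had 0 such pairs among 13 genes with a start. Where ends were shared, 50 of 54 members were open and 49 acetylated, against 79.6% and 70.1% of all genes with shared ends. Where ends stood apart, 29 of 34 members were open and 27 acetylated, against 51.3% and 39.4% of such genes.

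H3K27ac at divergent pairs was wide on both sides of the start. It reached a median of 732.5 bp upstream and 729 bp downstream at 18 members with a divergent partner, and 472 bp upstream and 764 bp downstream at 43 without one. It was longer downstream at 7 of the 18 and at 32 of the 43.

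The pair of Atp5j and Gabpa joins a subunit gene to a gene of a known regulator, since Gabpa encodes the DNA-binding part of GABP and Atp5j the coupling factor F6 of complex V. Their nearest starts lie 148 bp apart, and 1 H3K27ac peak of 2145 bp (chr16:84834084-84836228) with 3 ATAC peaks covers both. Atp5j has 2 RefSeq starts, and which of them lies 148 bp from the Gabpa start is not given here. At the upstream start, 84835625, the promoter window held 2 GC boxes but no NRF1, ETS or YY1 core, and no ATAC peak covered that start. The promoter shown is that at the downstream Atp5j start (chr16:84834927-84835226, minus strand, start at 84834976). It was chosen because it is the only member promoter with the NRF1, ETS and YY1 cores together. Capitals mark the NRF1 core at 147, the YY1 core at 88 and the ETS core at 61 bases before the start.
Atp5j: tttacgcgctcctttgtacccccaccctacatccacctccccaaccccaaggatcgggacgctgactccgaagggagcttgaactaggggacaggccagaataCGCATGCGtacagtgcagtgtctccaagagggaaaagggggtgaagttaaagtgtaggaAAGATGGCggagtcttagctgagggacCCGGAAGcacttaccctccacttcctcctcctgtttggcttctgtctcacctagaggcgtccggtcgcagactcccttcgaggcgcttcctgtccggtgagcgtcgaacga

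Cores of NRF1, YY1 and ERR were more frequent in subunit promoters than in promoters at large, also among open promoters, whereas the ETS core was near the share of open promoters. Over 76 member promoters of 71 genes, and 21263 promoters in all, the NRF1 core was present in 38.2% against 11.1%, the ETS core in 22.4% against 11.6%, the YY1 core in 13.2% against 3.05% and the ERR core in 10.5% against 4.08%. Promoters open at the start had a median CpG ratio of 0.797, against 0.567 over all promoters, so the shares were also taken over those alone, 70 of members and 10729 in all. They were 41.4% against 19.9% for NRF1, 24.3% against 19.6% for ETS, 14.3% against 4.81% for YY1 and 11.4% against 2.41% for ERR. At least 1 of the NRF1, ETS and YY1 cores was present in 65.7% of open member promoters and 38.3% of all open promoters. In 75 promoters of mitochondrial ribosomal protein genes the shares were 26.7% for NRF1, 34.7% for ETS, 16% (12 of 75) for YY1 and 5.33% for ERR, so the ETS and YY1 shares were higher there than in subunit promoters. A match is a description of letters and shows no binding.

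General promoter elements were mixed. The GC box was present in 38.6% of open member promoters against 72.3% of all open promoters, the CCAAT box in 40.0% against 39.2%, and the TATA box in 10% (7 of 70) against 5.30%, although over all promoters, open or not, it was 11.8% against 12.6%. The median CpG ratio was 0.825 in open member promoters and 0.797 in all open promoters. By complex, with no test, NRF1 was found at 10 of 35 genes of complex I, 2 of 3 of complex II, 3 of 5 of complex III, 1 of 13 of complex IV (Cox6a1) and 10 of 15 of complex V, and Sdha and Ndufb4 held 3 NRF1 cores each. ERR cores were found at 4 genes of complex V, Atp5e, Atp5g3, Atp5k and Atp5l, at Ndufb2, Ndufb4 and Ndufs5 of complex I, and at Sdhd.

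**Figure D5:**
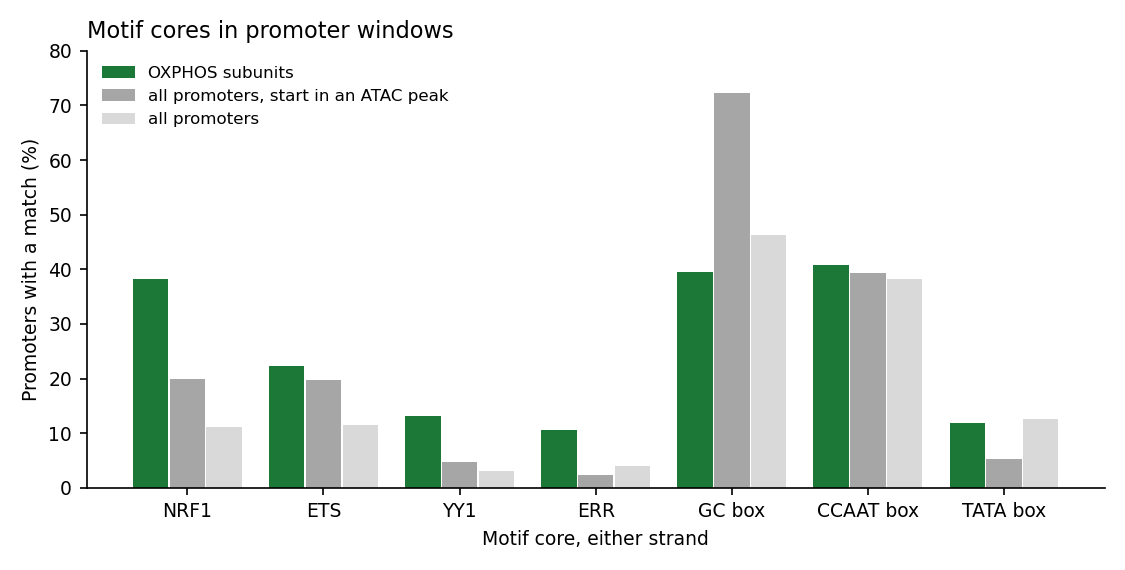
Share of promoter windows of 300 bases (%) with at least 1 match to each core on either strand, for 76 subunit promoters (green), 10729 promoters whose start lies in an ATAC peak (dark grey) and all 21263 promoters (light grey). Among the sets drawn, NRF1, YY1 and ERR are most frequent at subunit promoters and the GC box at open promoters in general.

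Matches to the YY1 core gathered just after the start. Of 10 matches in members, 8 had their first base at or after the start, between 22 and 38 bases downstream, and 9 of 10 read on the strand of the gene. Over all promoters 47.6% of 670 YY1 matches lay at or after the start. The strand of the matches was not counted over all promoters, so the 9 of 10 has no share beside it. Why the member matches lie after the start was not tested. Most of each window lies upstream, with 250 bases before the start and 50 from the start on. The NRF1 core had a median of 29 bases before the start over 39 matches. Of these, 20.5% lay at or after the start, against 15.4% of NRF1 matches over all promoters. The ETS core had a median of 18 bases before the start over 20 matches. Of these, 35% lay at or after the start, against 21.1% of ETS matches over all promoters. The windows below hold the YY1 core in capitals with up to 10 bases on either side, on the strand of the gene, and are shown so that the shared letters around the core can be compared. They begin at positions 84835047 (Atp5j, chromosome 16), 145191501 (Atp5j2, chromosome 5), 105959249 (Atp5pb, chromosome 3), 3617385 (Ndufa3, chromosome 7), 126849098 (Ndufa9, chromosome 6), 44555393 (Ndufb8, chromosome 19), 51408916 (Ndufc1, chromosome 3), 114388045 (Ndufs4, chromosome 13), 73328433 (Ndufs6, chromosome 13) and 80249463 (Ndufs7, chromosome 10) of GRCm38, with Ndufa3 and Ndufs7 on the plus strand and the others on the minus strand. The exceptions in position are Atp5pb, 3 bases before the start and on the other strand, and Atp5j, 88 bases before the start.
Atp5j: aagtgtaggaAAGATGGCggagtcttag
Atp5j2: ccaggacttcAAGATGGCgtcactcggt
Atp5pb: tgtgcgagcgGCCATCTTgctcctgccc
Ndufa3: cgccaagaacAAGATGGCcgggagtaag
Ndufa9: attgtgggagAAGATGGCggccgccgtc
Ndufb8: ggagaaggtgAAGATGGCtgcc
Ndufc1: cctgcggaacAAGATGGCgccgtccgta
Ndufs4: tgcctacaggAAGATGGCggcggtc
Ndufs6: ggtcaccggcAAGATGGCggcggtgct
Ndufs7: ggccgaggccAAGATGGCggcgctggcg

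Distal ATAC peaks near subunit genes, acetylated or not, were fewer per gene than over all genes. ATAC peaks over 1 kb from every gene end were assigned to the nearest end within 100 kb, which is a rule of distance and not a measured target. Members received 47 such peaks, 0.534 per gene against 1.11 over all genes, and 11 of them overlapped H3K27ac, 0.125 per gene against 0.249. Of all distal ATAC peaks, 22% overlapped H3K27ac. Of those 11, the peaks of Cox5a and Cox7a2 covered the gene's own RefSeq start, that of Atp5g3 lay 300 bp from its own start, and that of Ndufv2 covered the start of Ankrd12. Away from starts as well as ends, 7 peaks were left, and 6 members (6.82%) had at least 1, against 11.7% of all genes. The share was 8.88% in all genes with shared ends, 12.5% in 48 assembly factors and 12.8% in 78 mitochondrial ribosomal protein genes. Members are short, with a median length of 7154 bp against 17169 bp over all genes. Whether length or shared ends bear on these counts was not tested.

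These 7 peaks lay near members of complexes I and V. Atp5o had 2 of them, of 108 and 190 bp, about 31 kb from the gene under 1 H3K27ac peak of 1581 bp (ATAC at chr16:91962679-91962786 and chr16:91962967-91963156). Ndufa10 had 1 of 535 bp, 73099 bp away, and Ndufb4 had 1 of 127 bp, 30497 bp away. Ndufv3 had 1 of 275 bp under H3K27ac of 4360 bp, 10388 bp away, Ndufa4l2 had the peak inside its gene described above, and that of Atp5a1 lay inside the neighbouring gene Haus1.

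Genes that serve the same pathway were marked like the subunits. Of 48 assembly factors, which build the complexes, 47 were open and 47 acetylated, with medians of 461 and 1206 bp for the widest peaks. The exception was Atpaf2, an assembly factor of complex V, with neither mark at an end and both at its RefSeq start. Of 78 mitochondrial ribosomal protein genes 72 were open and 73 acetylated, and 69 of 69 with a RefSeq start had both marks there. The 5 with neither mark at an end, Mrpl4, Mrpl22, Mrpl24, Mrps2 and Mrps23, each had ATAC and H3K27ac inside the gene. Of 17 pyruvate dehydrogenase and tricarboxylic acid cycle genes 16 had both marks. The exception was Pdha2, the testis form of the pyruvate dehydrogenase alpha subunit, with no peak, and Pdha1, its common form, had both. The electron carrier cytochrome c gave the same contrast, with no peak at the testis gene Cyct and both marks at the somatic gene Cycs, where H3K27ac spanned 1722 bp.

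Among 12 regulator genes, 11 were open and 9 acetylated. Nrf1 had H3K27ac of 2067 bp, Yy1 3400 bp, Sp1 2333 bp, Esrra, which encodes ERR alpha, 1975 bp and Gabpa the 2145 bp peak it shares with Atp5j. Tfam, Tfb1m and Tfb2m, which act on mitochondrial DNA transcription, had 756, 702 and 2862 bp, and the coactivator gene Pprc1 had 719 bp. The coactivator genes Ppargc1a and Ppargc1b, known for driving mitochondrial biogenesis in muscle and brown fat, were open at an end. They had 9 and 6 ATAC peaks inside the gene but 0 H3K27ac peaks in either place. Ppargc1a had neither mark within 1 kb of its RefSeq start, so its open end is not that start, and for Ppargc1b no RefSeq start is known. Gabpb1, the partner of Gabpa, had neither mark at an end and both at a RefSeq start.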

How the data were processed

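Peaks came from 2 ATAC-seq and 2 H3K27ac libraries of sorted TrkC neurons; the input DNA was not used here. The values deposited by the authors are positions in bp (start and end, of no other unit) of 1 consensus list of peaks per assay, on mm10. Per the submitters' processing notes, cutadapt 1.18, Bowtie2 2.3.5.1, MACS2 and bedtools were used; how the consensus was formed and the peak thresholds are not given in the sources used here. Depth is unknown. A peak missing from a list may be below the authors' threshold, and peak width depends on it too.

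Peaks on chromosomes 1 to 19, X and Y (43652 ATAC, 19924 H3K27ac) were set against 21887 protein-coding genes of RefSeq GRCm38 with Python 3.11.15, pandas 2.3.3 and numpy 2.4.6. Annotated gene spans carry no strand; strand and starts came from RefSeq promoter windows of 300 bases, matched for 71 of 88 members. Lists, 121 symbols besides the ribosomal name pattern, all matched. The overlap steps were tested on simulated data. No test was run, because each assay is 1 list and genes are not replicates.

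The members and lists were chosen with earlier results of these data known. Genes named with values are members lacking a mark, restricted isoforms and their partners, the 10 with most distal acetylated peaks, the 5 widest H3K27ac peaks, the Atp5g and regulator genes, and genes of other lists lacking both marks; further members illustrating a complex were chosen after their values were seen. Some results of single genes are not reported here. Protein identity between isoforms was planned and was not analysed here. Alternatives were other windows, a width cut, other overlap rules, genes standing apart, autosomes only, other assignment distances and, added after seeing the data, RefSeq starts in place of ends and leaving out Ndufb4b and Ndufb4c.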

Additional observations from a re-analysis of the deposited data

How the results depend on the processing

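Of 60 values recomputed under other settings, 51 stayed inside the 95% interval of the share or, for counts and widths, within 1.5 times, and 9 moved further. Members open at an end were 95.5% with a peak anywhere in the gene (70.1% of all genes) and 95.8% at RefSeq starts, a choice made after seeing the data. Members acetylated were 93.0% and members with both marks 91.5% at RefSeq starts. With only the wider 50% of the peaks kept, members acetylated were 59.1% and members with both marks 55.7%, against 32.4% and 30.4% of all genes; fewer peaks enter by construction. Of the muscle or testis isoforms, 0% (0 of 2) were open among genes standing over 2 kb from others. Distal acetylated peaks were 6 with the wider 50% and 7 away from RefSeq starts. No muscle or testis isoform that could be scored was acetylated in any of these settings. Over 6 settings of the end rule, 48 of 88 members kept both marks throughout and Cox6a2, Cox8b and Cox8c had neither in any.

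No paired analysis was possible because each assay is 1 consensus list, and leaving out a replicate could not be done for the same reason. Depth is unknown, so a missing peak is not shown to be absent signal. Peaks at shared ends can belong to more than 1 gene, and 17 members without a RefSeq start were described at annotated ends only.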
